A study of Mus musculus with 6 samples.

Results

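Fibro/adipogenic progenitors (FAPs) are the resident mesenchymal stromal cells of skeletal muscle, and the profile described here is that of FAPs taken from injured muscle of control mice. Its members are the 2 arrays of control VMO, of 6 arrays in the whole series. All 6 arrays came from wild-type male C57Bl/6 mice aged 8 to 12 weeks whose tibialis anterior muscles had each received 30 µL of 50% glycerol, a chemical injury that kills muscle fibres. On day 3 the injured muscles were injected with a vivo-morpholino (VMO), an antisense oligomer carrying a group that lets it enter cells in the living animal, and FAPs were isolated 2 days later, on day 5 of the injury. Control VMO, pA-VMO and 5'ss-VMO were given to 2 samples each, so the injury and a VMO injection were common to every group, and no muscle without them was analysed here. Each array held RNA from cells of 4 mice in a pool, which were pelleted and frozen straight after isolation. The labels name hindlimb muscle as the source and do not say how the FAPs were sorted.

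FAPs lie between the muscle fibres, outside their basement membrane, and carry the receptor PDGFR-alpha on their surface. In injured muscle they divide, secrete matrix and signals that act on satellite cells (the muscle stem cells) and on incoming immune cells, and are later cleared. When they persist they give rise to the fibroblasts of scar tissue and to the fat cells that replace fibres, and glycerol injury is used because it is followed by fat deposition.

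Expression was read as a log2 signal per probe set, a group of short probes along a gene on the Affymetrix Mouse Gene 1.0 ST array. Of 35556 probe sets, 21789 carried exactly 1 gene symbol and stood for 19938 genes. Their log2 signals on the single control arrays ran from 1.71 to 13.41, and the median of their means over both arrays was 6.33. The signal of a probe set also depends on how well its probes bind, so a rank here is a rank of signal and not of transcript number. A value from 1256 probe sets of smell and taste receptors, which FAPs should not transcribe, served as background. Their median was 3.70 and their 95th percentile was 5.52, and a probe set at or below 5.52 is called near background. The top 10% of the named probe sets, with means of 9.09 and above, are called high, and the rest middling. By these limits 2179 named probe sets were high (10%), 12810 were middling (58.8%) and 6800 were near background (31.2%). The lower edge was soft, because the 99th percentile of the receptors was 6.24 and 3680 probe sets lay between these 2 percentiles, so values in that interval are described below as dim. No test was run, since the profile holds 1 condition.

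The control arrays were close to each other. The difference between them had an SD of 0.148 (log2) over all named probe sets, of 0.0809 in the high band and of 0.181 near background. Of 14989 probe sets above the background limit, 27 (0.18%) differed by more than 0.5. When each array was banded alone, 21085 probe sets (96.8%) took the same band on both. Banding from the pA-VMO arrays in place of the control arrays left 97.2% of the probe sets in the same band, and from the 5'ss-VMO arrays 97.3%, with 0 moving between high and near background in either case. The number of arrays limits the precision, and the spread given is between pools of mice.

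The markers of FAPs were bright. Pdgfra, the receptor by which FAPs are known, read 11.37 and 11.24 on the control arrays (mean 11.30 ± 0.09, SD, n = 2) and stood at rank 334 of the named probe sets. Dcn (decorin, a collagen-binding proteoglycan) had a mean of 12.98 ± 0.03 (SD, n = 2) and rank 12. Cd34, a sialomucin of progenitor cells, read 10.87 and 10.83. Pdgfrb, the receptor shared with pericytes, read 10.22 and 10.20. All 4 defining markers were thus in the high band on both arrays, as the label of the samples would have it. Of 19 FAP markers measured, 15 were high, 4 middling and 0 near background, with a list median of 10.27 against 6.33 over all named probe sets. In bulk RNA a low signal can mean fewer cells of a type or less RNA per cell, and these cannot be told apart.

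The markers that were not high are those used elsewhere to split stromal cells into subsets. Pi16, a marker of a progenitor-like fibroblast state, read 7.65 and 7.83. Dpp4, which marks the same state, read 7.74 and 7.64. Nt5e (CD73) was dim at 6.08 and 6.06. S100a4, a fibroblast-associated calcium-binding protein, came just under the high limit at 9.04 and 8.82. By contrast Thy1, a surface glycoprotein of fibroblasts, read 10.09 and 10.01, and Fap, a fibroblast protease, read 9.86 and 9.96. The surface marker Ly6a (Sca-1) was not analysed here.

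**Figure D1:**
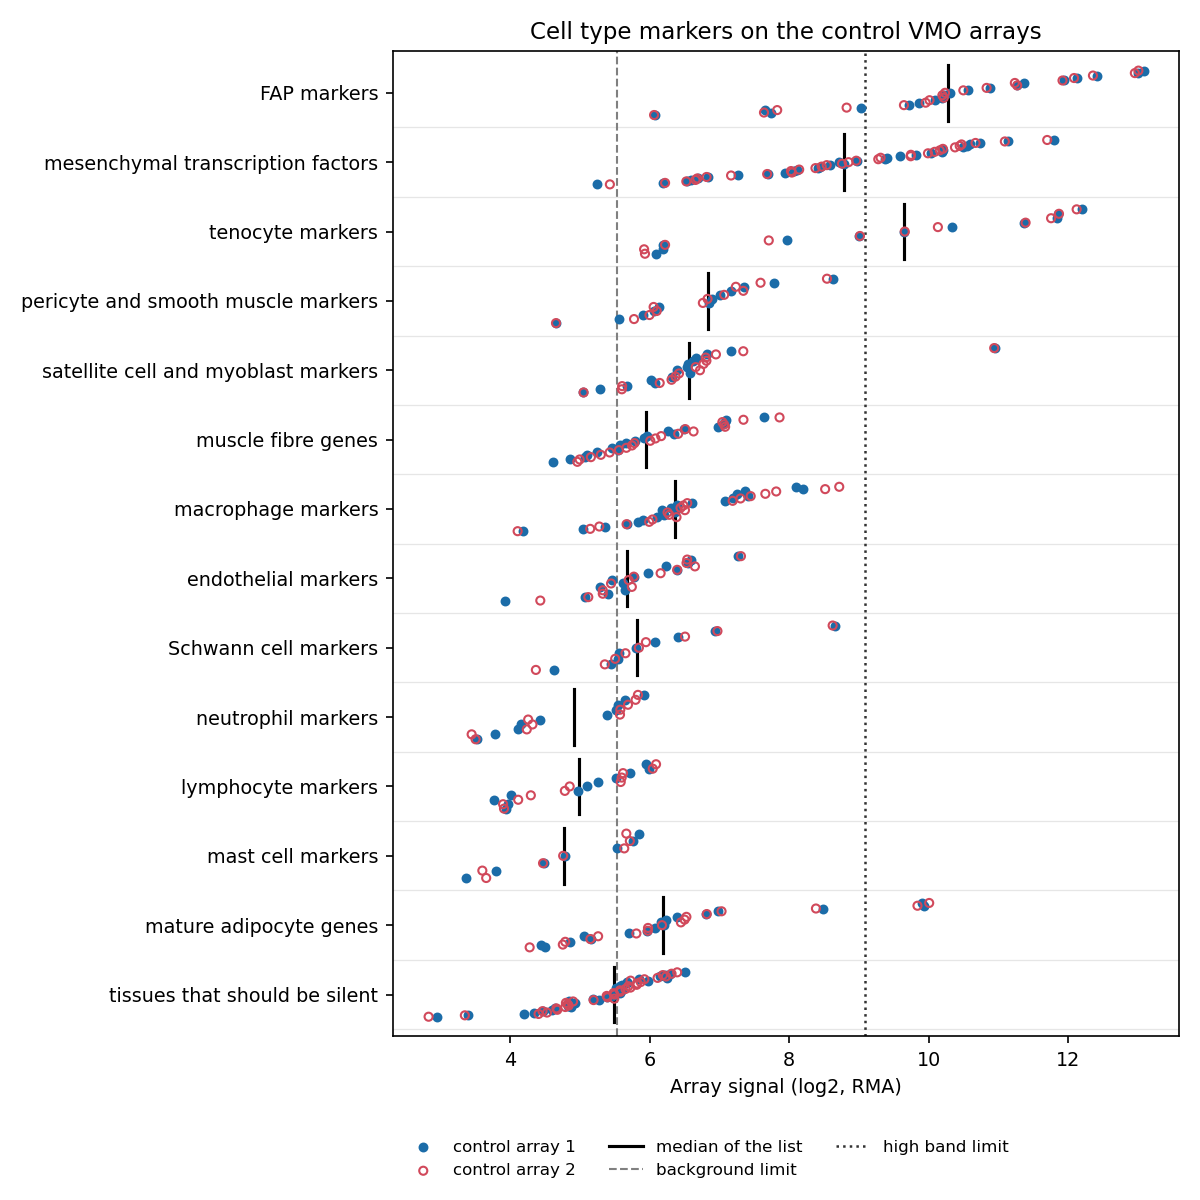
Log2 signal of marker genes (x axis, RMA values) by cell type (rows), with 1 filled point per gene for control array 1 and 1 open point for control array 2, the median of each list as a bar, and the background (5.52) and high (9.09) limits as dashed and dotted lines. FAP markers have a median of 10.27, whereas neutrophil, lymphocyte and mast cell markers lie below 6.24 on both arrays.

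Transcription factors of connective tissue were split between the bands. Of 31 measured, 14 were high, 16 middling and 1 near background. Nfix, a nuclear factor I protein, read 11.80 and 11.70. Ebf1, of a family that acts in stromal and fat cell precursors, read 11.14 and 11.09. Osr1, which marks developmental and activated FAPs, read 10.50 and 10.38. Those 3 and Prrx1 (10.60 and 10.47), a regulator of limb mesenchyme, were far above the limit of the high band. Runx1 was also high at 10.56 and 10.45, as was the cartilage and tendon factor Sox9 at 10.21 and 10.16. Middling members included Twist1 (7.94 and 8.04), Twist2 (8.07 and 8.03) and Tcf7l2 (8.97 and 8.96), the last a known marker of muscle connective tissue fibroblasts. Tcf21, a fibroblast factor of several internal organs, was the 1 member near background, at 5.25 and 5.43.

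Markers of blood cells other than macrophages were at or close to background. Neutrophil markers had 0 high, 4 middling and 6 near background of 10, and 0 of them passed 6.24. S100a8, the abundant calcium-binding protein of neutrophils, read 4.16 and 4.32. Lymphocyte markers had 7 of 11 near background, with Cd3d at 5.11 and 4.85 and the B cell gene Cd79a at 3.93 and 3.91. Mast cell markers had 4 of 7 near background, with Cpa3, a mast cell protease, at 3.79 and 3.60. Of the lymphocyte and mast cell markers 0 passed 6.24.

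Macrophage markers were measurable and did not reach the high band. Of 20, 17 were middling and 3 near background, and 13 passed 6.24, with a list median of 6.36. The lysozyme gene Lyz2 read 8.10 and 8.72, and the cathepsin gene Ctss 8.19 and 8.52. Complement C1qb read 7.36 and 7.81. These 3 were the brightest by mean and were higher on control array 2. Of all 20 members 5 were higher on array 1, against 52.1% of all named probe sets. Receptors that define macrophages were dim, with Adgre1 (F4/80) at 5.90 and 6.04, Csf1r at 6.10 and 6.38 and Mrc1 at 5.83 and 5.99. Cd163 was near background at 4.18 and 4.10. Whether macrophage RNA contributes to any gene described below was not tested.

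Markers of vessel and nerve cells did not reach the high band. Endothelial markers had 0 high, 9 middling and 5 near background of 14, and 5 passed 6.24. Tek, an angiopoietin receptor, read 7.27 and 7.31, Cdh5, the cadherin of endothelial junctions, 6.59 and 6.54, and Pecam1 (CD31) was dim at 5.46 and 5.70. Pericyte and smooth muscle markers had 11 of 12 middling, and 7 passed 6.24, with a list median of 6.83. Among them were the proteoglycan gene Cspg4 at 7.78 and 7.59 and the signalling regulator Rgs5 at 6.89 and 6.83. Schwann cell markers had 7 of 9 middling and 2 near background, and 3 passed 6.24. The brightest was Ncam1 at 8.66 and 8.62, an adhesion gene that other cells also use, while Sox10, which defines the lineage, read 6.40 and 6.51.

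Satellite cell and myoblast markers were below the high band apart from Vcam1. This adhesion gene, which is shared with activated stromal cells, read 10.95 and 10.94 and was the 1 high member of 15. Pax7, the defining factor of satellite cells, read 6.39 and 6.72. The myogenic factor Myod1 was dim at 6.08 and 6.14, and Myf5 likewise at 5.67 and 5.60. Of muscle fibre genes 15 of 20 were middling and 5 near background, with a median of 5.95. Acta1, the actin of fibres and an abundant transcript of muscle, was the brightest at 7.64 and 7.86, and Myh1, a fast myosin, read 4.61 and 4.96. Of the 20 fibre genes 1 was higher on control array 1, against 52.1% of all named probe sets. The median difference of the fibre genes, array 1 minus array 2, was -0.167.

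Tenocyte markers were either high or middling. Thbs4, a thrombospondin of tendon and injured muscle, read 12.20 and 12.13, and the cartilage and tendon protein gene Cilp 11.84 and 11.76. Scx, the transcription factor that marks tendon progenitors, read 6.19 and 6.22. Mkx, another tendon factor, read 6.09 and 5.93. Tnmd, a membrane protein of mature tenocytes, was just under the high limit with a mean of 9.01. The matrix gene Kera was middling at 7.97 and 7.71. The factor Egr1, also in this list and given below with the immediate early genes, was high. In all 6 of 11 tenocyte markers were high and 5 middling.

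Structural matrix supplied many of the brightest genes of the profile. Col1a1, which encodes the main chain of type I collagen, read 13.18 and 13.07, and its partner chain Col1a2 read 13.02 and 12.92. Col3a1, of the type III collagen that is laid down early in repair, read 12.93 and 12.87. All 3 stood among the 14 brightest named probe sets. Fibrillar and fibril-associated collagens had 8 high and 11 middling of 19, so the brightness was that of particular chains and not of the family. Col5a2 (11.37 and 11.31), whose chain nucleates type I fibrils, and the fibril-bound collagens Col14a1 (11.74 and 11.71) and Col12a1 (mean 11.09) were high. The cartilage collagens Col2a1 (7.91 and 8.00) and Col11a1 (8.09 and 8.01) were middling, and Col10a1, of growth plate cartilage, was near background at 5.13 and 5.27.

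Among network and other collagens the type VI chains stood out. Col6a1 read 11.91 and 11.86, Col6a2 read 11.70 and 11.63 and Col6a3 read 12.05 and 11.91. These encode the chains of the beaded microfibril that surrounds muscle fibres, and FAPs are known as its source. Basement membrane collagen was lower, with Col4a1 just under the high limit at 9.06 and 9.07 and Col4a2 at 8.86 and 8.76. The related Col4a3 (6.01 and 6.02) and Col4a4 (6.14 and 6.21), of kidney and other specialised membranes, were dim. Of 24 members 5 were high, 18 middling and 1 near background.

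Enzymes that build collagen were bright as a group. Of 26 measured, 17 were high and 9 middling, with a median of 9.98. Pcolce, which speeds the cleavage of procollagen ends, read 12.27 and 12.25. Lox, the oxidase that starts cross-linking, read 12.03 and 11.93. P4hb, a subunit of prolyl hydroxylase, read 11.93 and 11.84. Within the hydroxylase catalytic subunits P4ha3 (11.24 and 11.09) and P4ha1 (9.84 and 9.72) were high and P4ha2 (8.81 and 8.75) middling. Serpinh1, the collagen chaperone, was high at 10.27 and 10.24.

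Matrix glycoproteins were the list with the most high members among the secreted matrix, 32 of 37, with 5 middling, 0 near background and a median of 10.83. Sparc (osteonectin, a collagen-binding protein) read 13.25 and 13.22. Fn1 (fibronectin, the early scaffold of repair) read 13.16 and 13.03. Postn (periostin, a protein of healing tissue) read 13.03 and 12.97. All 3 were within the 11 brightest named probe sets. The elastic fibre genes Eln (9.69 and 9.67) and Mfap5 (12.13 and 12.09) were high too. Laminin chains differed, with Lamc1 (10.98 and 10.86), Lamb1 (10.86 and 10.80), Lama4 (10.42 and 10.35) and Lama2 (10.05 and 9.98) high. Lama5 (6.09 and 6.20) and the embryonic chain Lama1 (5.99 and 5.98) were dim.

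**Figure D2:**
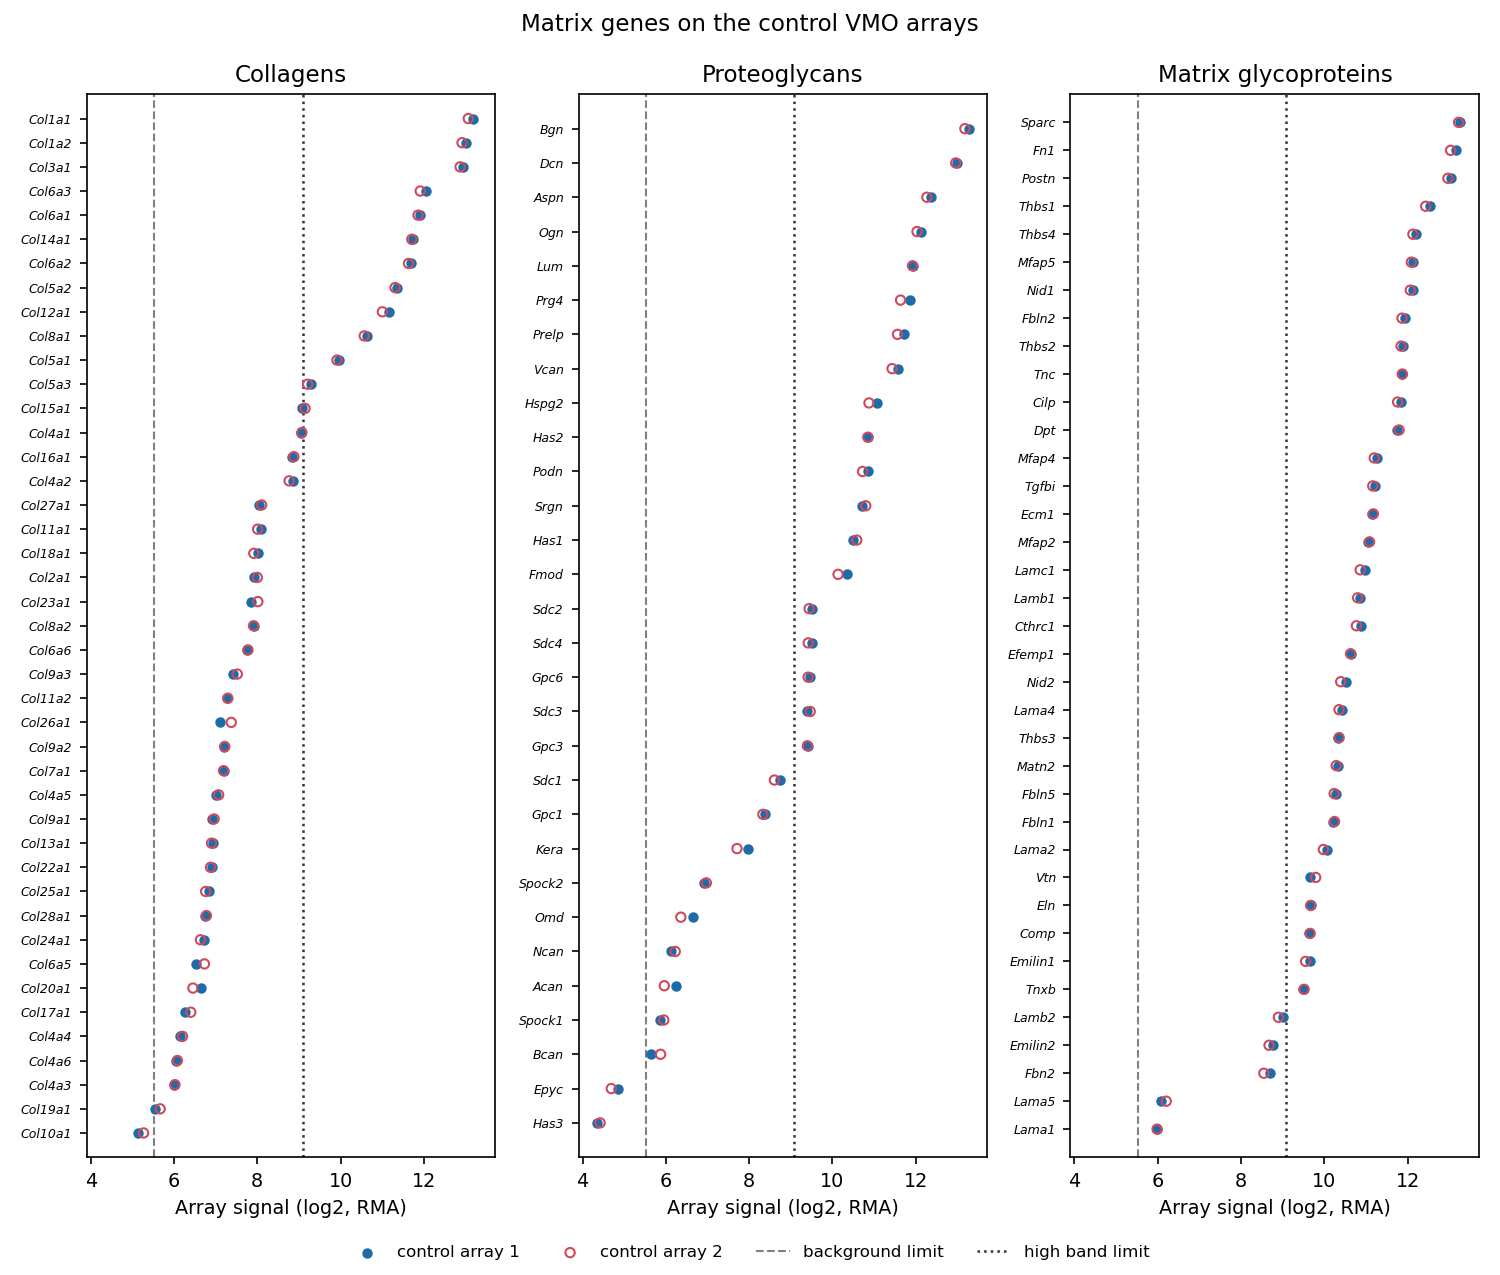
Log2 signal (x axes, RMA values) of collagens, proteoglycans and matrix glycoproteins (rows, ordered by mean), with control array 1 filled, control array 2 open, and the background (5.52) and high (9.09) limits as lines. The collagens run from Col1a1 at 13.18 and 13.07 to Col10a1 at 5.13 and 5.27, while 32 of 37 glycoproteins lie above the high limit.

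The small leucine-rich proteoglycans, which coat collagen fibrils and set their width, were also high. Bgn (biglycan) read 13.27 and 13.18. Aspn (asporin) read 12.36 and 12.27, Ogn (osteoglycin) 12.13 and 12.03 and Lum (lumican) 11.94 and 11.92. Their relatives were not all bright. In RefSeq's gene order (GRCm38.p6) Dcn, Lum, Kera and Epyc are neighbours, and the bands along that row were high, high, middling and near background, with Kera (keratocan, of cornea and tendon) at 7.97 and 7.71 and Epyc (epiphycan, of cartilage) at 4.86 and 4.69. In the neighbouring set Ecm2, Aspn, Omd and Ogn, Ecm2 read 10.24 and 10.18 and Omd (osteomodulin, of bone) alone was middling at 6.64 and 6.36. Among hyaluronan synthases Has2 (10.85 and 10.85) and Has1 (10.50 and 10.58) were high and Has3 (4.35 and 4.42) near background. Of 30 proteoglycan genes 19 were high, 9 middling and 2 near background.

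The promoters of matrix and translation genes differed in CpG content. From the lists of collagens and matrix glycoproteins, and from those of ribosomal proteins and translation factors, 3 bright members each are printed. All have an entry in the RefSeq promoter table (GRCm38.p6). Not every member with an entry was considered, so these need not be the brightest ones. Each is given by the 60 bases that end at the base before the annotated start, 5′ to 3′ along the gene's strand. The capitals mark CG dinucleotides, because the sets differ in this pair. The genes were chosen after their values were seen.
Sparc, chr11:55420081-55420140, minus strand: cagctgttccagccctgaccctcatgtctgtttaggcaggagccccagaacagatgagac
Postn, chr3:54359207-54359266, plus strand: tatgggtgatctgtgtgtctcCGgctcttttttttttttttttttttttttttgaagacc
Col1a2, chr6:4505558-4505617, plus strand: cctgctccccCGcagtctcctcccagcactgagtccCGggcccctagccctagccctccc
Eef1a1, chr9:78481725-78481784, minus strand: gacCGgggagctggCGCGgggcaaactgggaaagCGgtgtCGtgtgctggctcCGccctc
Rpl10, chrX:74270756-74270815, plus strand: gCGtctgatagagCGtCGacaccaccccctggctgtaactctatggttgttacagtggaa
Rps12, chr10:23787210-23787269, minus strand: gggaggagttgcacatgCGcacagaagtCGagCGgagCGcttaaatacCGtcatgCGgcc
In these 60 bases Sparc has 0 CG, Postn 1 and Col1a2 2, against 6 for the elongation factor Eef1a1, 3 for the ribosomal protein gene Rpl10 and 6 for Rps12. Over the 300 bases of the table (250 before the start and 50 from it) the counts are 4, 4 and 13 for the matrix genes and 22, 17 and 29 for the translation genes.

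CpG content was then read over 15006 protein-coding genes with an entry, of 18556, as the observed number of CG over that expected from the C and G of the 300-base window. The ratio was at least 0.6 in 53.0% of all promoters. It reached that in 75.6% of 1437 high genes, in 66.5% of 9068 middling genes and in 18.7% of 4501 genes near background. Without smell and taste receptors the last share was 24.0%. Matrix lists had a smaller share of such promoters than high genes as a whole. Among high collagens and matrix glycoproteins 8 of 30 promoters (26.7%) reached 0.6, with a median ratio of 0.42, and among high ribosomal protein and translation genes 32 of 36 (88.9%), with a median of 0.93. The lists at any level had 18 of 58 and 36 of 41. These counts include the high members, so the shares are not independent. Whether the shares are particular to the bright members was not tested. High proteoglycans had 5 of 13 (8 of 22 at any level), high chemokines 1 of 5 and high complement genes 0 of 2. Of high collagen processing genes 9 of 12 reached 0.6 (75.0%), close to the share of all high genes. Of high secretory genes 20 of 22 did (90.9%), close to the share of the translation genes.

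Motifs were searched in the same window on both strands. The GC box GGGCGG was found in 50.6% of all promoters, in 70.4% of high genes and in 22.1% of genes near background. TATAAA was found in 12.2% of all promoters, in 9.74% of high, 7.38% of middling and 22.8% of near-background genes. The last share was 17.6% without smell and taste receptors, and among the top 5% of probe sets the high share was 12.9%, above that of all promoters. CCAAT was found in 38.2% of all promoters, in 36.1% of high genes and in 40.4% of genes near background, an order that turned in the 100 bases before the start, with 22.1% of high and 19.7% of near-background genes. GGGCGG holds a CG itself, so its share moves with CpG content. A match describes the letters in the window only.

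**Figure D3:**
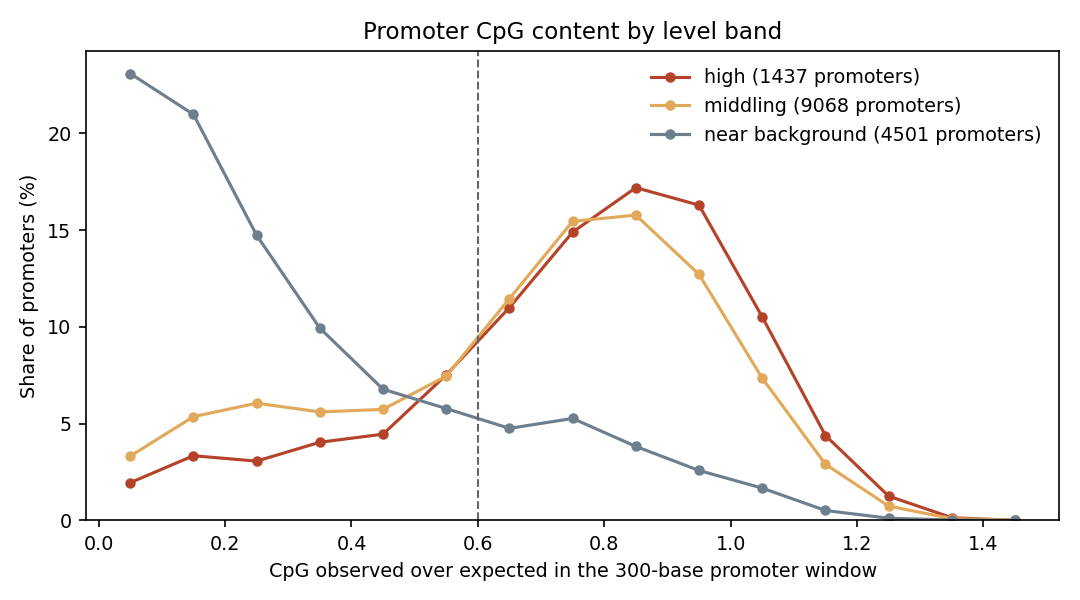
Share of promoters (y axis, percent of each band) by CpG observed over expected in the 300-base window (x axis, in steps of 0.1) for high, middling and near-background genes, with the dashed line at 0.6. A share of 75.6% of high and of 18.7% of near-background promoters lies at or above it.

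Genes that take matrix apart were bright alongside those that build it. Mmp2 (gelatinase A) read 12.52 and 12.42, and Mmp14, the membrane protease that activates it, 11.85 and 11.79. The inhibitors Timp2 (11.79 and 11.77) and Timp1 (11.61 and 11.52) were high as well. Mmp3 (stromelysin, 10.18 and 10.01) and the collagenase Mmp13 (10.27 and 10.03) were high, whereas Mmp8, the collagenase of neutrophils, was near background at 3.64 and 3.81. Timp4 was near background at 4.74 and 4.92. In this list of 31, 18 were high, 10 middling and 3 near background. Over all 22 Mmp genes named on the array, 6 were high and 7 near background.

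In PDGF signalling the receptors were bright and the ligands were not. The values of Pdgfra and Pdgfrb are given above. Among the ligands Pdgfa (8.26 and 8.17) and Pdgfc (8.19 and 7.96) were middling, and Pdgfd (6.76 and 6.88) and Pdgfb (6.23 and 6.33) were lower in the same band. The receptor-like gene Pdgfrl read 9.94 and 9.94. Of the related vessel factors Vegfa was high at 10.29 and 10.20, while its receptor Kdr was near background by its mean, with 5.29 and 5.74.

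TGF-beta signalling, which drives matrix production in stromal cells, was represented at every level. The ligands Tgfb2 (10.01 and 9.83) and Tgfb3 (9.69 and 9.62) were high, and Tgfb1 (8.98 and 8.93) lay just below. Inhba, a chain of activin A, read 11.49 and 11.11, a gap between the arrays that is wide beside the SD of 0.0809 of the high band. Receptor Tgfbr2 read 10.01 and 9.92, the mediator Smad3 9.45 and 9.33, and the response gene Ccn2 9.94 and 9.93. Secreted antagonists were bright too, with Fstl1 (follistatin-like 1) at 12.79 and 12.73 and Fst (follistatin, which binds activin and myostatin) at a mean of 10.02. Mstn, the gene of myostatin, was near background at 4.11 and 4.11. Of 28 members 15 were high, 12 middling and 1 near background.

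BMP ligands were mostly middling. Bmp5 was high at 10.35 and 10.23, as was the receptor Bmpr2 at 10.87 and 10.62. Bmp4 (7.69 and 7.66) and Bmp2 (7.98 and 7.95) were middling. The antagonists Grem1 (6.26 and 6.42) and Nog (6.33 and 6.27) lay close to 6.24. The targets Id1 (7.69 and 7.79) and Id3 (8.71 and 8.80) were middling. Of 24 members 6 were high and 18 middling.

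In the Wnt pathway 3 secreted antagonists were high and the ligands were not. Sfrp2 read 12.52 and 12.47, Sfrp1 12.00 and 11.98 and Sfrp4 9.51 and 9.74. Over all 19 Wnt genes on the array 0 were high and 4 near background. Wnt5a read 6.98 and 6.94 and Wnt11 7.34 and 7.32. Axin2, a common target of the beta-catenin branch, was dim at 5.90 and 5.90, and Lef1, a factor of that branch, at 5.76 and 5.48. The pathway's own members Ctnnb1 (10.52 and 10.48) and Fzd1 (9.83 and 9.71) were high. In total 7 of 39 were high, 31 middling and 1 near background.

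Hedgehog and Notch genes gave 4 high, 17 middling and 3 near background of 24. The Hedgehog transducer Smo (9.48 and 9.51) and the coreceptor Gas1 (9.40 and 9.56) were high, but the target Gli1 was low at 6.59 and 6.66. Jag1, a Notch ligand, read 9.94 and 9.90, and Notch2 9.52 and 9.39. The vascular ligand Dll4 was near background at 5.33 and 5.34.

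Factors that act on muscle and on other cells were prominent. Igf1, a growth factor for myoblasts, read 10.83 and 10.90, and Igf2 9.83 and 10.04. The binding proteins Igfbp7 (12.52 and 12.47) and Igfbp4 (11.82 and 11.86) were brighter members of the list. Csf1, which supports macrophages, read 10.72 and 10.71, and the receptor Egfr 10.88 and 10.79. Fgf7 was high at 9.83 and 9.77 while Fgf10, its close relative, was near background at 5.19 and 5.08. Hgf, an activator of satellite cells, was middling at 8.30 and 8.25. Of 31 members 13 were high, 17 middling and 1 near background.

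Among cytokines a few ligands and many receptors were high. Il33, an alarmin that FAPs are known to supply to regulatory T cells, read 11.99 and 11.80. Il6, which acts on satellite cells, read 10.72 and 10.87. The receptors Il6st (gp130, 11.85 and 11.79), Osmr (11.24 and 11.14) and Il4ra (10.70 and 10.59) were high, the last the receptor by which type 2 cytokines reach FAPs. The cytokines of inflammatory macrophages were low, with Il1b at 6.51 and 6.60 and Tnf at 6.23 and 6.41, and Il10 was near background at 4.48 and 4.16. The type 2 ligand Il4 was near background at 5.41 and 5.21. Of 29 members 10 were high, 10 middling and 9 near background, a share near background close to that of all named probe sets.

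Chemokines that draw monocytes, neutrophils and T cells were in the high band. Ccl2 read 12.12 and 12.16 and Ccl7 12.12 and 12.15, both ligands of the monocyte receptor Ccr2. Ccr2 itself read 4.30 and 4.51, near background. The interferon-induced Cxcl9 (11.81 and 11.85) and Cxcl10 (11.89 and 12.06) and the neutrophil attractants Cxcl1 (11.77 and 11.83) and Cxcl5 (11.77 and 11.63) were high. Cxcl12, a constitutive stromal chemokine, was just below the limit at 8.95 and 8.95. Ccl22 (5.30 and 5.35) and Ccl17 (5.28 and 5.23), which are made by myeloid cells, were near background. Of all 13 Cxcl genes named on the array 7 were high (53.8%), against 3 of 19 Ccl genes (15.8%), and 8 of 10 Ccr receptor genes were near background.

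Complement was represented by the early components and by regulators. Serping1, the C1 inhibitor, read 12.73 and 12.69 and had rank 23. Cfb (factor B) read 11.75 and 11.79 and C1s1 (a C1 protease) 11.14 and 11.11. The terminal component C6 was near background at 4.52 and 4.66. Of 18 genes 6 were high, 9 middling and 3 near background.

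Integrins, the receptors through which cells hold matrix, were high for a few chains. Itga5 (11.54 and 11.48) and Itgav (11.33 and 11.21), the chains that bind fibronectin and vitronectin, were high with their partner Itgb1 (11.22 and 11.11). Itga11, a collagen receptor of fibroblasts, read 9.82 and 9.77. The muscle laminin receptor Itga7 (6.55 and 6.77) and the leukocyte chain Itgb2 (6.20 and 6.37) were low. In total 5 of 25 were high, 17 middling and 3 near background.

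Actin and cytoskeleton genes were bright, but the contractile markers of mature smooth muscle were not. Actb read 13.07 and 12.99, and Acta2, the alpha smooth muscle actin by which myofibroblasts are scored, 10.84 and 10.84. Tagln (7.85 and 7.90), a smooth muscle actin-binding gene, was middling and Cnn1 (5.55 and 5.77), calponin of smooth muscle, was dim. Of 25 genes 19 were high and 6 middling.

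Fat cell genes and their regulators were high about as often as named probe sets in general, of which 10% were high. Adipoq, the hormone of mature fat cells, was near background at 4.43 and 4.75, and Plin1, which coats lipid droplets, was low at 6.23 and 6.50. Lpl (lipoprotein lipase, 9.90 and 10.01) and Scd1 (a fatty acid desaturase, 9.93 and 9.84), both also used outside fat cells, were the 2 high members of 17. The master regulator Pparg was middling at 7.28 and 7.27, and Cebpa at 6.91 and 6.81. Cebpb, which acts early in fat cell formation, sat at the high limit with 9.08 and 9.09. Dlk1 (8.81 and 8.88) and Zfp521 (8.12 and 8.07), which restrain that step, were middling. Of 19 regulators 2 were high, 14 middling and 3 near background, and without control array 2 the count of high members was 1.

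Dividing-cell genes were measurable at a middling level. All 19 genes of G2 and M phase were middling, with a median of 7.03, among them Ccnb2 (8.49 and 8.38), Top2a (7.95 and 7.87) and Mki67 (7.73 and 7.63). Of 20 S phase genes 18 were middling, Pcna alone was high at 9.81 and 9.82, and Gins1 was near background at 4.45 and 4.52. Brakes on division had 6 of 13 high, such as Btg1 (11.50 and 11.45) and Cdkn1c (the inhibitor p57, 9.28 and 9.44).

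Immediate early genes, which are induced within minutes of a stimulus, were high as a list. Of 20, 16 were high and 4 middling, with a median of 10.53. Fosb read 11.85 and 11.97, Fos 11.09 and 11.08 and Egr1 11.36 and 11.39. Dusp1, a phosphatase induced with them, read 12.04 and 12.04. The prostaglandin synthase Ptgs2, another early response gene, read 12.77 and 12.71 and stood at rank 20. The median of the list was 10.53 and 10.55 with control VMO, 10.35 and 10.35 with pA-VMO, and 10.50 and 10.57 with 5'ss-VMO, so the brightness was not that of the control samples alone.

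Protein synthesis and secretion supplied many of the brightest genes. Eef1a1 read 13.14 and 13.14. Of 36 ribosomal protein genes with a probe set of their own 32 were high, with a median of 11.66, and of 16 translation factors 12 were high. Most ribosomal genes have several probe sets and many near-identical pseudogenes, so their values are uncertain as those of single genes. Secretory pathway genes had 25 of 29 high. The chaperone Hspa5 (BiP) read 12.14 and 12.07, the disulfide isomerase Pdia3 12.00 and 11.94 and the secretory regulator Xbp1 10.67 and 10.64. Ddit3 (CHOP), a gene of prolonged folding stress, was middling at 7.96 and 8.00. Lysosome genes had 15 of 17 high, with Ctsb (cathepsin B) at 11.92 and 11.86 and Ctsk, a collagen-degrading cathepsin, at 10.62 and 10.61.

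**Figure D4:**
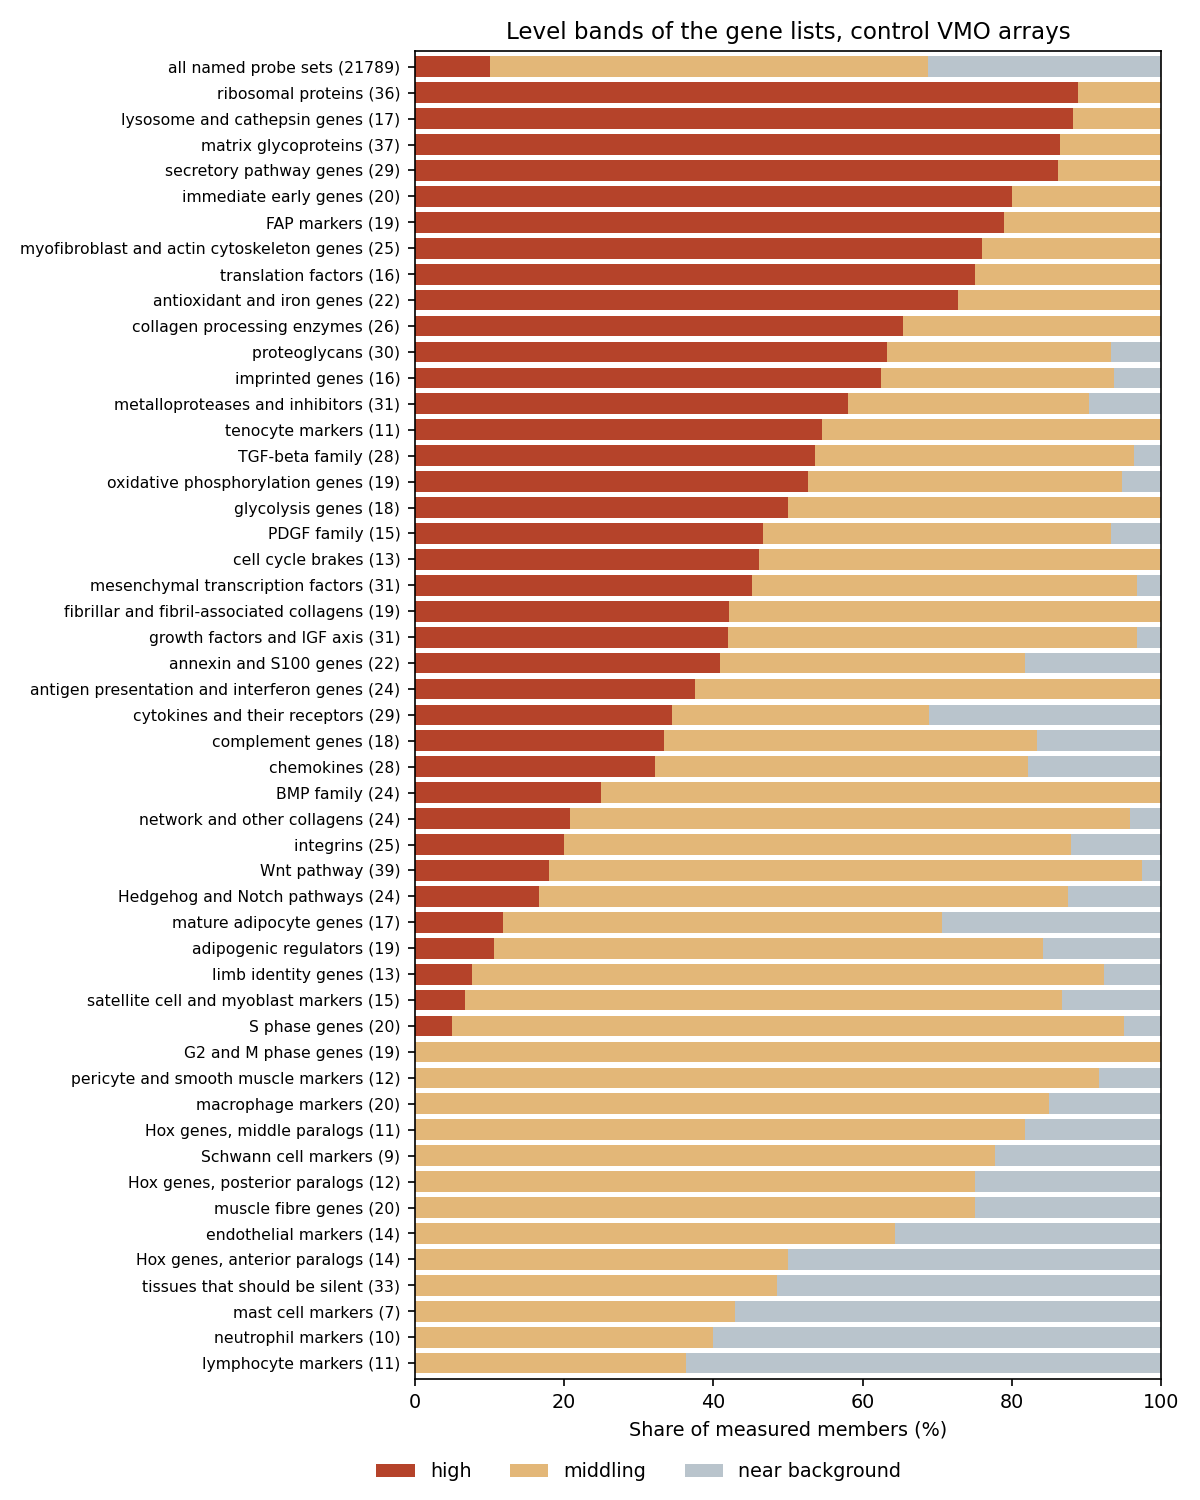
Share of the measured members of each gene list (x axis, percent; number of members in brackets) that was high, middling or near background on the control arrays, ordered by the high share, with all 21789 named probe sets as the top bar. Ribosomal proteins have 32 of 36 members high and matrix glycoproteins 32 of 37, while lymphocyte markers have 0 of 11.

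Stress and iron genes were bright. Of 22, 16 were high and 6 middling. Fth1 (ferritin heavy chain) read 12.77 and 12.72, the metallothioneins Mt2 12.61 and 12.66 and Mt1 12.52 and 12.50, and Hmox1 (heme oxygenase 1) 12.17 and 12.11. Nqo1, a target of the oxidant-sensing factor NRF2, was dim at 5.78 and 5.80. Energy genes were split, with 9 of 18 glycolysis and 10 of 19 oxidative phosphorylation genes high. Ldha (lactate dehydrogenase A) read 11.24 and 11.14, the glucose transporter Slc2a1 11.14 and 10.99, and Atp5b of the ATP synthase 11.02 and 11.07.

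Antigen presentation and interferon genes ran from the top of the range to dim values. B2m, the light chain of MHC class I, read 12.78 and 12.77, and the antiviral Ifitm3 12.38 and 12.35. Ifi205, of the interferon-inducible Ifi200 family, read 12.49 and 12.44. Class II genes were middling, with Cd74 at 8.28 and 8.59 and H2-Aa at 7.97 and 8.43, and both were higher on control array 2. Their inducer Ciita was dim at 6.00 and 5.85. Mx1 was dim at 5.65 and 6.08. Of 24 members 9 were high and 15 middling. Of them 6 were higher on array 1, against 52.1% of all named probe sets.

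Genes of position along the body axis were low although they are used by limb cells. Of the anterior Hox paralogs, 7 of 14 were near background. The middle paralogs had 2 of 11 near background, and the posterior paralogs 3 of 12. In these lists 0 genes were high, and those that passed 6.24 numbered 3, 3 and 2 respectively. Among the brightest were Hoxd8 (mean 7.06), Hoxc9 (6.94 and 6.77) and Hoxc10 (6.80 and 6.93), the last a gene of the hindlimb. Of the genes that specify the hindlimb, Pitx1 was middling at 6.64 and 6.76 and Tbx4 dim at 6.03 and 6.17. The forelimb gene Tbx5 was near background at 4.32 and 4.42. Tbx15, of limb and fat mesenchyme, was the 1 high limb gene of 13 at 9.78 and 9.78.

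Imprinted genes, which are expressed from 1 parental copy and act on fetal growth, were bright as a list. Mest read 12.20 and 12.21, Grb10 11.18 and 11.10, Plagl1 10.50 and 10.53 and Peg10 10.41 and 10.43. Of 16 measured 10 were high, 5 middling and 1 near background, the last Phlda2 at 5.49 and 5.47. Peg3, a marker of muscle progenitors outside the satellite cell position, read 9.19 and 9.45.

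Genes linked to sex were read as a check of the labels. Xist, expressed from the inactive X in females, was near background at 3.71 and 4.05, and the Y-linked Eif2s3y read 7.40 and 7.13 and Uty 6.74 and 6.64. The Y-linked Kdm5d was dim at 5.75 and 5.80. The samples are labelled male.

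The highest signals among named genes are given by rank. Sparc, Bgn, Eef1a1, Col1a1, Fn1, Vim, Actb, Postn, Dcn, Col1a2 and Col3a1 came after Baiap2l1 at the top. The value of Baiap2l1 rests on 1 of 3 probe sets annotated to it, with means of 13.39, 11.41 and 6.34, so its place at rank 1 is uncertain. Apod, a lipid-binding protein of stromal cells, read 12.68 and 12.58. The galectin Lgals1 read 12.42 and 12.42 and Lgals3bp, a secreted galectin partner, 12.55 and 12.49. COX2, the mitochondrial gene of cytochrome oxidase subunit II, read 12.53 and 12.60, and all 4 mitochondrially encoded probe sets were high.

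Gene families differed in how many of their genes were high. Of 253 families of 10 or more genes that share the letters before the first digit, 7 had at least 50% of their genes high, and 96 had 0 high. The first were Rpl (69.4%), Rps (64.5%), Atf (6 of 10), Cxcl, Snord (51.6%), Anxa and Hspa. A family with 0 high was not always near background. The mitochondrial ribosomal families Mrps and Mrpl had 0 of 29 and 1 of 48 genes near background. In 3 families every gene was near background, the prolactin family Prl (19 genes), Taar (13) and the glucuronosyltransferases Ugt (11). The Taar genes are among the smell and taste receptors that set the background limit, so their band follows largely from that choice. Of 87 Cyp genes 73.6% were near background, of 40 defensins (Defb) 75.0% and of 52 keratins (Krt) 50.0%. Of 790 probe sets of genes on the X chromosome 45.8% were near background and 10.9% high, against 31.2% and 10% of all named probe sets. Chromosome 6 had 39.3% near background. Of 30 probe sets on the Y 26 were near background. A list of 33 genes of liver, brain, testis and other organs, such as Alb (albumin, 4.84 and 4.90) and Ins2 (insulin, 5.67 and 5.82), had 0 high and 17 near background, and 2 of them passed 6.24, namely Prm2 at 6.50 and 6.39 and Apoa1 at 6.30 and 6.31.

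The pools differed most in a set of middling genes. Among genes above background on both arrays the widest gap was for the interferon factor Irf5, at 6.04 and 6.72, followed by Car3, a carbonic anhydrase of muscle and fat, at 6.68 and 7.34. Lyz2 of macrophages (8.10 and 8.72) and the acute phase gene Saa3 (8.02 and 8.60) were also among the 12 widest and higher on array 2. Eid3 (8.33 and 7.67) and the cystine transporter Slc7a11 (6.90 and 6.36) were higher on array 1. By lists, 1 of 20 fibre genes and 26 of 29 secretory genes were higher on array 1. Of matrix glycoproteins, most of them high, 27 of 37 were, close to the share of the high band as a whole. Over all named probe sets 52.1% were higher on array 1, with 70.4% of the high band, 55.2% of the middling band and 40.5% of those near background. On the other 4 arrays the median of the fibre genes was 5.91 and 5.94 with pA-VMO and 6.06 and 5.93 with 5'ss-VMO, against 5.85 and 6.04 with control VMO.

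**Figure D5:**
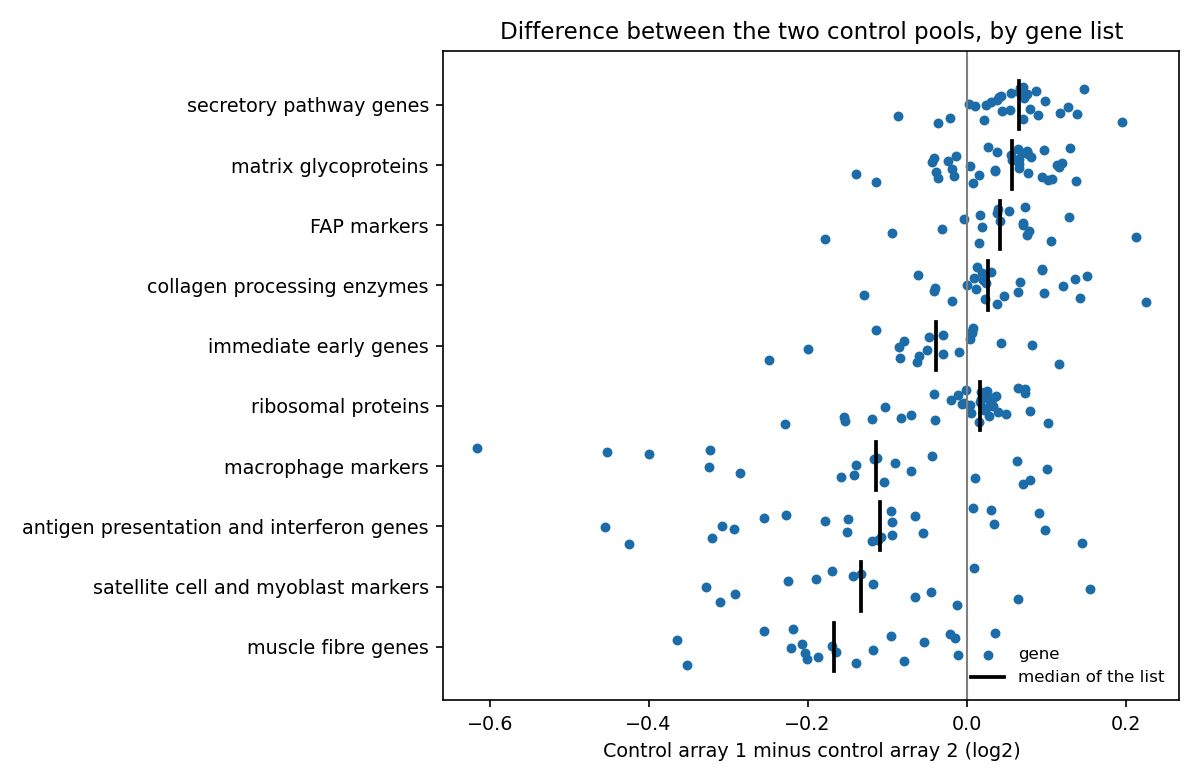
Difference between control array 1 and control array 2 (x axis, log2) for each gene of 10 lists (rows), with the median of each list as a bar. Fibre genes have a median of -0.167 and macrophage markers of -0.114, and secretory genes of 0.066.

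The limits of the bands separate genes whose signals are alike. Atf2 (9.09), Slc39a7, Cebpb, Qk and Prkx were the last inside the high band, and Impact (9.09), Rcn2, Zbtb10, Oxct1 and Ppt1 (9.08) the first outside. At the background limit Srrd, Sgca, Gp9, Olfr371 and Rspo4 lay just above and Taar5, Mast1, Ttf1, Duoxa2 and C8g just below, all at 5.52. Probe sets of 1 gene can also fall apart. Of 999 genes with several, 298 had them in more than 1 band and 11 had both a high and a near-background probe set, such as Dab2 (9.77 and 3.13). A gene is given here by its brightest probe set.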

How the data were processed

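RNA of 2 control VMO samples, each a pool of 4 mice, was read on Affymetrix Mouse Gene 1.0 ST arrays from 100 ng of total RNA, per the labels' protocols. The deposited values are log2 signals made by the authors with RMA in Affymetrix Expression Console, per the submitters' processing notes. RMA corrects background and makes the arrays' distributions alike, so total RNA per cell cannot be read, and dim values are compressed. For the software version, the RMA settings and the genome build of the array, nothing is stated in the labels or files used. No scanner files were used here, so background correction and normalization were kept as deposited.

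Means of the 2 arrays were ranked over 21789 probe sets with exactly 1 symbol in the platform annotation; 1621 with several symbols and 12146 with none were left out, and 21698 of the named ones matched a RefSeq gene ID. A gene took its probe set with the highest mean. Bands, 52 gene lists (1133 members, 1048 measured) and promoter windows were computed in Python 3.11.15 with pandas 2.3.3 and numpy 2.4.6. The banding rule was also run on simulated data. The planted values lay far from both limits, so their recovery does not speak to genes near a limit. The members and lists were chosen with earlier results of these data known. Named genes were the 40 brightest, list members, the 12 with the widest gap between the arrays and 5 on each side of a limit; predicted genes and small RNAs were counted only. Neighbouring genes of list members, genes used as examples of discordant probe sets and the printed promoters were chosen after their values were seen. Alternatives changed the background limit, the high limit, the arrays, the probe set taken and the promoter window.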

Additional observations from a re-analysis of the deposited data

How the results depend on the processing

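The number of named probe sets near background was 6800, and it became 10480 with the 99th percentile of the receptors as limit, 10476 with the 95th percentile of the genes of other organs, and 14424 over all probe sets of the table. With each control array alone it was 6944 to 7108. List members near background numbered 113, and became 251 under both stricter limits and 72 under the 25th percentile of all named probe sets, with 123 to 124 from 1 array alone. Of list members 390 were high, from 286 with the top 5% to 493 with the top 20%, 334 when the top 10% was taken among probe sets above background, and 389 to 390 from 1 array alone. At the top 5% the high members fell from 15 to 5 for the TGF-beta family, from 10 to 4 for imprinted genes, from 10 to 5 for oxidative phosphorylation and from 6 to 2 for cell cycle brakes. Ranked above background the brakes had 2, oxidative phosphorylation 5, Hedgehog and Notch 1 and adipogenic regulators 0. The share of high promoters with a CpG ratio of at least 0.6 was 75.64%, and 68.65% for the top 5%; that of near-background promoters was 18.73%, 28.44% with the 99th percentile limit and 23.44% over the 100 bases before the start. The 99th percentile limit changed the near-background count of 42 of 52 lists, and the top 5% the high count of 36. Leaving out control array 1 changed the near-background count of 13 lists, by up to 3 genes, and leaving out array 2 that of 12, by up to 2. High counts then changed in 4 and 3 lists, by 1 gene each. No paired analysis was possible because the results come from no test. The 2 arrays of 1 condition give no more than a spread, and the signal over background limits what can be said of genes between 5.52 and 6.24.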

Other observations

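Probe sets outside the named set also carried signal. Of 12146 probe sets with no symbol, 815 (6.71%) were at or above the high limit of the named probe sets and 56.8% were near background. Of 1621 with several symbols, 484 (29.9%) were at or above the high limit and 44.7% were near background. Among named probe sets with a RefSeq match, by RNA class, 22 of 58 for small nucleolar RNAs were high, against 0 of 299 for microRNAs and 1.82% of 713 for long noncoding RNAs, of which 54.8% were near background.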
